A study of Caenorhabditis elegans with 6 samples.

Results

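Fatty acid activation and beta-oxidation genes of Caenorhabditis elegans are described here in animals exposed to C-SPIONs, citrate-coated nanoparticles of superparamagnetic iron oxide, and in unexposed controls. The genes were taken by name. They are the array's transcript clusters (the probes that stand for 1 transcribed locus) with 1 annotated symbol in the families acs, cpt, acdh, ech and acox, together with hacd-1, maoc-1, dhs-28 and daf-22. These were 62 genes of the 25478 with a cluster of their own on the array. Each of the 62 had a single cluster, and all 62 entered the test, since no filter on low signals was used.

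The study measured whole-animal RNA of the wild-type strain N2 on 6 one-colour Affymetrix arrays. Both groups were synchronised hermaphrodites that grew on bacterial plates for 48 h to the L4 larval stage. Both were then kept at 20 °C for 24 h in half-strength (50%) M9, a salt buffer. The C-SPION group (3 arrays) had 500 µg/mL of the particles in that buffer, and the control group (3 arrays) had buffer alone. The labels name no food for these 24 h in either group, and no group analysed here received citrate alone or uncoated particles.

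Fatty acids are broken down only after an acyl-CoA synthetase (acs) has joined them to coenzyme A. In mitochondria, long-chain acyl-CoAs enter through carnitine palmitoyltransferases (cpt), and each round of shortening runs through an acyl-CoA dehydrogenase (acdh), an enoyl-CoA hydratase (ech), a 3-hydroxyacyl-CoA dehydrogenase such as hacd-1 and a thiolase. Peroxisomes run a parallel cycle with acyl-CoA oxidases (acox), the hydratase MAOC-1, the dehydrogenase DHS-28 and the thiolase DAF-22, which in worms also trims the side chains of ascaroside pheromones. In C. elegans these enzymes act largely in the intestine and the epidermis, and fasting shifts some of them through the nuclear receptor NHR-49.

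Values are the authors' log2 RMA signals, and differences are C-SPION minus control on that log2 scale, so a difference of 1 is a doubling. A signal depends on the probes as well as on the transcript, so signals of different genes are not ranked against each other. Across the tested clusters, pairs of arrays correlated at 0.935 to 0.968, and C-SPION 1 correlated more closely with control 1, at 0.959, than with C-SPION 2, at 0.935, or C-SPION 3, at 0.949. Of 10 germ line markers, 10 were higher with C-SPIONs, with a median difference of 0.81, while 11 of 11 neuron markers and 7 of 7 muscle markers were lower, with medians of -0.82 and -0.65. Over all genes 53.2% were higher and 46.5% lower. Of 5 yolk protein genes, markers of adult hermaphrodites, 4 were higher, with a median of 0.31, from vit-5 at -0.06 to vit-1 at 1.68, which alone had an unadjusted p under 0.05. That median is the value of vit-4, a dim cluster with signals of 2.93 to 4.08, and vit-2 was at 0.07 and vit-6 at 0.84. In whole-animal RNA, fewer cells of a type and less RNA per cell cannot be told apart.

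The question was which of these genes differ between exposed and unexposed animals. The acyl-CoA synthetase genes acs-2, acs-16 and acs-24 and the transferase gene cpt-5 were lower with C-SPIONs. The synthetase gene acs-3 was higher. So were cpt-2, cpt-6, acdh-8, acdh-12, ech-1.1, ech-1.2, ech-4 and ech-5, of the carnitine transferase, dehydrogenase and hydratase families. The higher genes ran from 1.45-fold (acdh-8) to 1.77-fold (cpt-6). None of these differences passed the adjusted threshold. Of the 10 genes grouped here as peroxisomal, 0 were called without adjustment, where 12.6% of all genes were. That group was set by name, as the acox genes, maoc-1, dhs-28 and daf-22, and whether other members act in peroxisomes was not tested. At an unadjusted p under 0.05 in limma, 9 of the 62 genes were higher (14.5%, against 5.20% of all genes) and 4 were lower (6.45%, against 7.37% of all genes). With each array centred on its median 10 of the 62 were higher and 4 lower, where 6.44% and 5.09% of all genes were. After Benjamini-Hochberg adjustment over all 26192 tested clusters, 0 of the 62 and 0 of all clusters (0%) passed by limma, and the smallest adjusted p among the 62 was 0.264.

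The groups did not overlap in 13 of the 62 genes in the higher direction (21%, against 9.44% of all genes) and in 5 in the lower direction (8.06%, against 9.33%). The median difference of the 62 was 0.10, beside 0.03 over all genes, with 35 above 0 and 26 below (56.5% and 41.9%, against 53.2% and 46.5% of all genes). By role the medians ran from -0.08 for the peroxisomal genes to 0.36 for the acyl-CoA dehydrogenases. The count of 9 higher was 2 without control 1, control 3 or C-SPION 2 (4.11%, 4.37% and 3.86% of all genes in the same fits) and 0 without C-SPION 3 (2.81% of all genes). It was 8 without C-SPION 1 (7.43% of all genes) or control 2 (4.15%). The count of 4 lower was 2 without control 1 (6.22% of all genes), 6 without control 3 (7.50%) and 5 without C-SPION 1 (8.30%). The median of the 62 was 0.0067 without control 3, the control with the lowest signal in 33 of the 62 genes (53.2%, against 36.7% of all genes).

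**Figure D1:**
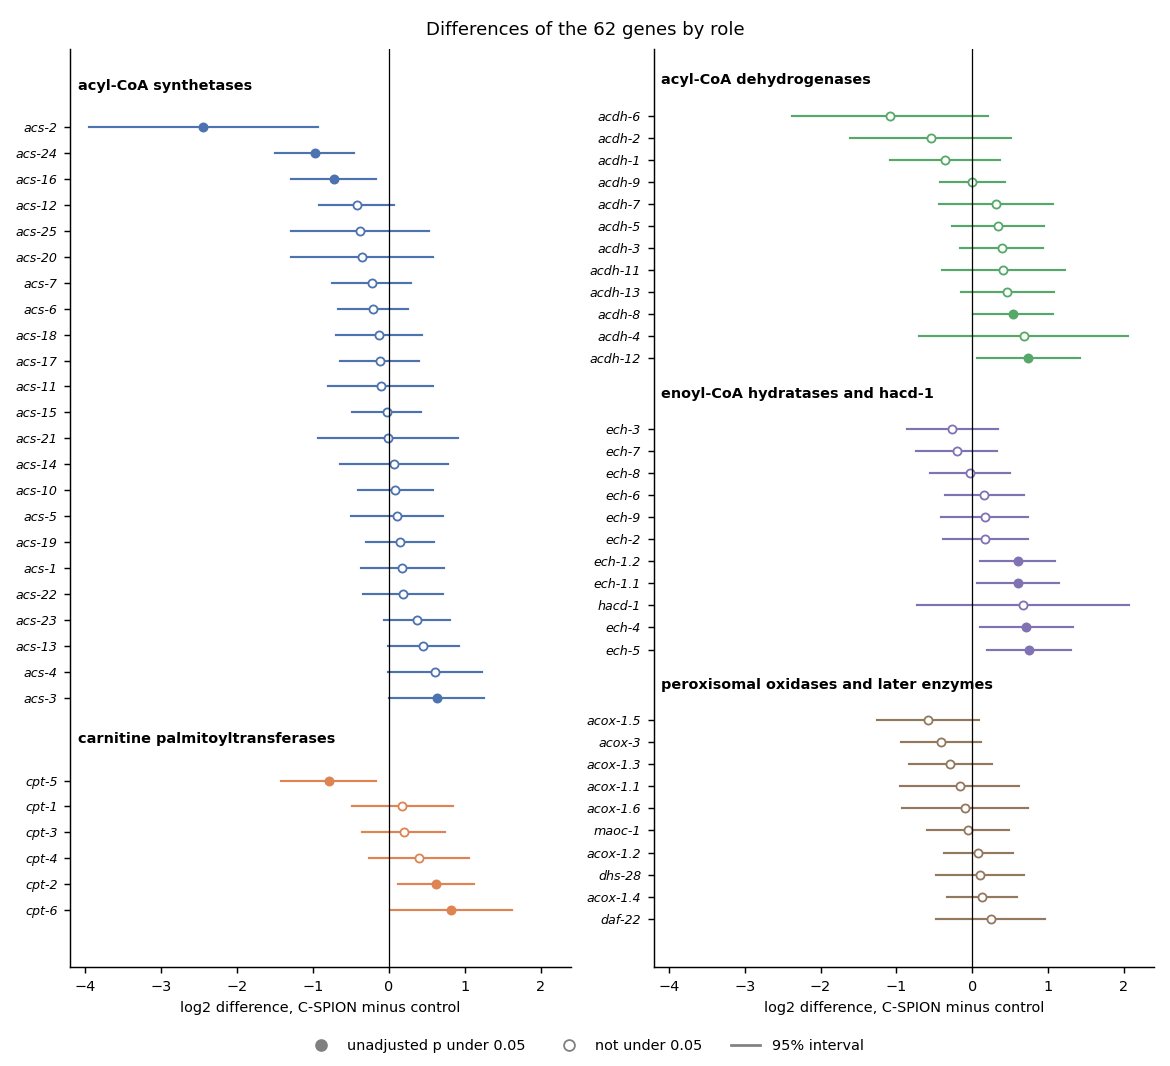
Log2 difference, C-SPION minus control, of each of the 62 genes with its 95% interval from limma, grouped by role; filled points have an unadjusted p under 0.05. The synthetases run from -2.44 for acs-2 to 0.63 for acs-3, and all 10 peroxisomal intervals include 0.

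The synthetases, which activate fatty acids, held the largest difference. Of 23 acs genes 3 were called lower (13%, against 7.37% of all genes) and 1 higher (4.35%, against 5.20%), and the median was -0.03, or 0.06 after median centring. The gene acs-2 encodes a mitochondrial acyl-CoA synthetase that fasting induces through NHR-49 in C. elegans. It read 4.60, 4.94 and 5.07 in C-SPION animals (replicates 1 to 3), against 7.91, 8.32 and 5.71 in control animals. The C-SPION values averaged 4.87 ± 0.24 (SD, n = 3), all below the controls, while the controls themselves were split, with control 3 far below the other two, giving a group mean of 7.31 ± 1.40 (SD, n = 3). The difference of -2.44 (95% interval -3.95 to -0.93, adjusted p = 0.295 by limma) is 5.44-fold lower, and 33 of 25478 genes had a lower one. It was -3.24 without control 3 and -1.94 without control 2, and the unadjusted p stayed under 0.05 whichever of the 6 arrays was left out.

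The genes acs-24 and acs-16, synthetases by family, were called lower too. The gene acs-24 read 4.48, 4.03 and 4.34 with C-SPIONs, against 5.24, 5.05 and 5.49 in controls. Its difference was -0.98 (95% interval -1.50 to -0.45, adjusted p = 0.264 by limma), the smallest p of the 62, and it too was called without each of the 6 arrays. The gene acs-16 read 5.50, 5.07 and 5.29 with C-SPIONs, against 6.32, 6.02 and 5.70 in controls, a difference of -0.73 (95% interval -1.29 to -0.16, adjusted p = 0.334 by limma). Both had groups that lay apart, with a control SD of 0.22 for acs-24 and 0.31 for acs-16.

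The single synthetase called higher was acs-3, which acts with the nuclear receptor NHR-25 in C. elegans epidermis. Its values were 7.13, 7.32 and 7.22 with C-SPIONs and 6.60, 7.04 and 6.13 in controls, a difference of 0.63 (95% interval 0.0058 to 1.26, adjusted p = 0.396 by limma) that was 0.40 without control 3. A further pair of genes just missed the unadjusted threshold with groups apart. The long-chain acyl-CoA synthetase gene acs-4 read 8.76, 9.08 and 9.01 with C-SPIONs, against 8.53, 8.63 and 7.86 in controls, and acs-13 differed by 0.46 (95% interval -0.0078 to 0.92). In these genes control 3 was again the lowest array.

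Synthetases with other tasks were not called. The difference was 0.18 (95% interval -0.37 to 0.73) for acs-1, which activates branched-chain fatty acids, and -0.22 (95% interval -0.74 to 0.30) for acs-7, which works in ascaroside synthesis. Of the homologues of fatty acid transport proteins that serve the cuticle barrier, acs-22 was at 0.18 (95% interval -0.34 to 0.71) and acs-20 at -0.35 (95% interval -1.30 to 0.59). C-SPION 1 stood apart for acs-20, which read 6.55, 5.07 and 5.18 with C-SPIONs, against 5.99, 6.03 and 5.84 in controls. Without C-SPION 1 its difference was -0.83 and called, but leaving out the array that stands apart favours a call. The remaining synthetases lay between -0.42 for acs-12 and 0.37 for acs-23, both with groups apart, and acs-18 was at -0.13.

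**Figure D2:**
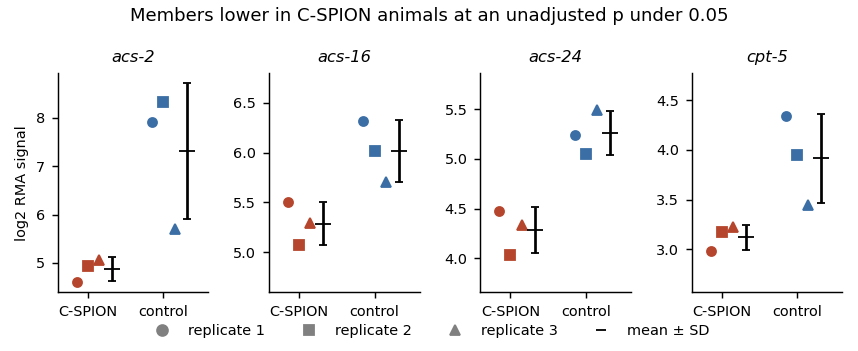
Log2 RMA signal on each array of the 4 genes called lower, with C-SPION arrays left of control arrays, symbols for the replicates and bars for the mean ± SD (n = 3). In all 4 genes every C-SPION array lies below every control array, and control 3 is the lowest control for acs-2, acs-16 and cpt-5 but the highest for acs-24.

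Carnitine palmitoyltransferases carry long-chain acyl groups into mitochondria, and 3 of the 6 were called, 2 higher (33.3%, against 5.20% of all genes) and 1 lower (16.7%, against 7.37%), with a median of 0.29. The gene cpt-2 encodes the enzyme of the inner membrane that hands the acyl group back to coenzyme A. It read 8.30, 8.53 and 8.66 with C-SPIONs, against 7.98, 8.0 and 7.64 in controls, and every C-SPION array exceeded every control. The difference was 0.62 (95% interval 0.13 to 1.12, adjusted p = 0.337 by limma), with leave-one-out values between 0.51 and 0.72. The gene cpt-1, for the outer-membrane enzyme that starts the transfer, read 7.55, 8.10 and 8.06 with C-SPIONs and 7.32, 7.71 and 8.14 in controls. Its groups overlapped and its difference of 0.18 (95% interval -0.48 to 0.84) was -0.02 without control 1.

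The 4 further cpt genes, which belong to the same family, pointed both ways. For cpt-5 the values were 2.98, 3.17 and 3.22 with C-SPIONs and 4.34, 3.95 and 3.45 in controls, a difference of -0.79 (95% interval -1.42 to -0.16, adjusted p = 0.337 by limma). These signals are below the array medians of 4.91 to 5.19, and RMA compresses differences near background. The called genes ech-1.1, acdh-8 and acs-24 also had means below those medians, at 4.2, 4.67 and 4.77. The values of cpt-6 were 6.42, 7.71 and 7.14 with C-SPIONs and 6.14, 6.14 and 6.53 in controls, a difference of 0.82 (95% interval 0.0095 to 1.63, adjusted p = 0.395 by limma). It was the only called gene whose groups overlapped, since C-SPION 1 lay below control 3, and it was 0.51 without C-SPION 2. The uncalled genes cpt-3 and cpt-4 were at 0.20 and 0.39.

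Acyl-CoA dehydrogenases take the first step of each mitochondrial round. Of 12 acdh genes 2 were called higher (16.7%, against 5.20% of all genes) and 0 lower (against 7.37%). The median was 0.36, and 8 of the 12 were above 0 (66.7%, against 53.2% of all genes). The gene acdh-12 is the homologue of the human very-long-chain acyl-CoA dehydrogenase. It read 8.24, 8.84 and 8.63 with C-SPIONs, against 7.91, 8.21 and 7.37 in controls, a difference of 0.74 (95% interval 0.07 to 1.41, adjusted p = 0.373 by limma). C-SPION 1 exceeded control 2 by little, so the groups were apart but close. The gene acdh-8, a homologue of the medium-chain enzyme, read 4.84, 4.73 and 5.25 with C-SPIONs and 4.21, 4.56 and 4.43 in controls, a difference of 0.54 (95% interval 0.01 to 1.07, adjusted p = 0.392 by limma). The groups also lay apart, without a call, for acdh-13 at 0.46 (95% interval -0.16 to 1.08) and acdh-3 at 0.39 (95% interval -0.16 to 0.94).

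The dehydrogenase gene acdh-1, which works in the alternative breakdown of propionate and is widely used as a diet reporter in worms, read 6.32, 6.52 and 5.86 with C-SPIONs, against 6.79, 6.05 and 6.94 in controls. The arrays overlapped, and the difference of -0.36 had a 95% interval from -1.08 to 0.36. Array C-SPION 1 went its own way in acdh-6, at 6.30, 4.40 and 4.15 with C-SPIONs and 5.75, 6.10 and 6.26 in controls, and in acdh-11, at 5.52, 6.78 and 6.60 with C-SPIONs and 5.91, 5.91 and 5.85 in controls. ACDH-11 binds medium to long fatty acids and takes part in adaptation of worms to heat. Over all arrays acdh-6 was at -1.09 (95% interval -2.38 to 0.21) and acdh-11 at 0.41 (95% interval -0.40 to 1.22). Without C-SPION 1 they were at -1.76 and 0.80, both with an unadjusted p under 0.05 by limma. There too the array left out was the discordant one, which favours a call. The remaining 5 genes ran from -0.55 for acdh-2 to 0.68 for acdh-4, with acdh-9, a homologue of human isobutyryl-CoA dehydrogenase, at 0.00 (95% interval -0.43 to 0.43) and acdh-5 at 0.34.

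Enoyl-CoA hydratases add water to the double bond in the step after the dehydrogenase. Of the 10 ech genes and hacd-1, 4 were called higher and 0 lower (36.4% higher, against 5.20% of all genes), and the median was 0.17. The pair ech-1.1 and ech-1.2 encodes homologues of the alpha subunit of the mitochondrial trifunctional protein, which joins hydratase and dehydrogenase activity. For ech-1.2 the values were 8.64, 8.73 and 8.87 with C-SPIONs and 8.01, 8.42 and 8.02 in controls, a difference of 0.60 (95% interval 0.11 to 1.09, adjusted p = 0.340 by limma). For ech-1.1 they were 4.16, 4.64 and 4.72 with C-SPIONs and 3.79, 4.10 and 3.82 in controls, also a difference of 0.60 (95% interval 0.06 to 1.15, adjusted p = 0.370 by limma). The probes of such related genes may cross-hybridise, which was not tested.

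A further pair of hydratase-family genes was called higher. The gene ech-5 read 7.39, 7.23 and 7.69 with C-SPIONs, against 6.76, 6.93 and 6.38 in controls, a difference of 0.75 (95% interval 0.19 to 1.30, adjusted p = 0.324 by limma). It was the steadiest of the genes called higher, with a call in 5 of the 6 fits that leave out an array, losing it without C-SPION 3. The gene ech-4 read 7.59, 7.90 and 8.04 with C-SPIONs, against 7.01, 7.56 and 6.83 in controls, a difference of 0.71 (95% interval 0.10 to 1.32, adjusted p = 0.358 by limma). In both the groups lay apart.

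Other genes of this role group were not called. The short-chain hydratase gene ech-6, whose product also acts in the alternative propionate route, was at 0.16 (95% interval -0.36 to 0.68), and ech-7, at 9.82, 9.72 and 9.71 with C-SPIONs and 9.72, 9.82 and 10.33 in controls, was at -0.21 (95% interval -0.74 to 0.33). For ech-3 the difference was -0.26. The dehydrogenase gene hacd-1 read 8.85, 9.53 and 9.27 with C-SPIONs, against 9.13, 9.41 and 7.10 in controls. Control 3 alone set its difference of 0.67 (95% interval -0.73 to 2.07), which was -0.05 without that array.

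**Figure D3:**
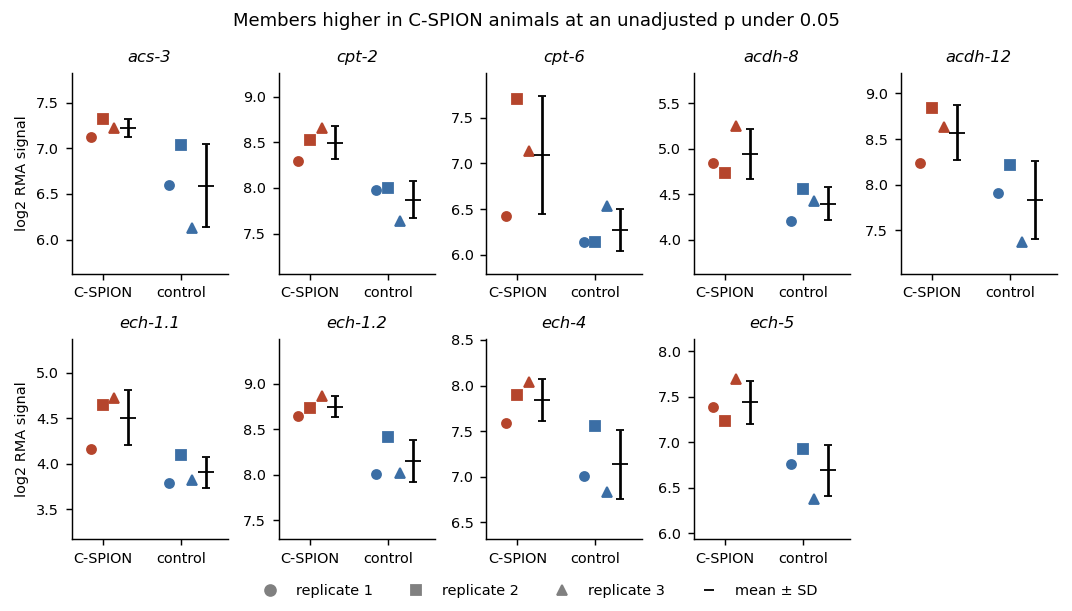
Log2 RMA signal on each array of the 9 genes called higher, with C-SPION arrays left of control arrays, symbols for the replicates and bars for the mean ± SD (n = 3). C-SPION 1 is the lowest C-SPION array in 7 of the 9, control 3 is the lowest control in 5, and the groups overlap for cpt-6 alone.

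Peroxisomal genes gave 0 calls among 10 by limma, at the unadjusted threshold (12.6% of all genes) as well as after adjustment (0% of all clusters), and in 0 of the 10 did the groups lie apart (18.8% of all genes). For 10 genes, counts of 0 are near those shares. Their median difference was -0.08, or 0.01 after median centring. The oxidases with the smallest p were acox-1.5, at 5.63, 5.23 and 5.52 with C-SPIONs and 6.08, 6.50 and 5.54 in controls, and acox-3, at 6.34, 6.42 and 6.51 with C-SPIONs and 7.07, 6.97 and 6.48 in controls. Their differences were -0.58 (95% interval -1.25 to 0.09) and -0.42 (95% interval -0.95 to 0.11). In both genes control 3 alone reached down into the C-SPION range, and without it both were called, at -0.83 and -0.60. Leaving out the array that overlaps favours a call, so these calls are no added support. The ascaroside oxidase genes acox-1.1, acox-1.3 and acox-1.4 were at -0.17, -0.29 and 0.13.

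The enzymes after the oxidases had differences from -0.06 to 0.24. For maoc-1 the values were 8.16, 8.54 and 8.42 with C-SPIONs and 8.36, 8.18 and 8.75 in controls, a difference of -0.06 (95% interval -0.60 to 0.49) that was 0.03 after median centring. For dhs-28 they were 8.44, 8.81 and 8.59 with C-SPIONs and 8.76, 8.66 and 8.11 in controls, a difference of 0.10 (95% interval -0.47 to 0.68). For daf-22 they were 6.35, 6.12 and 5.79 with C-SPIONs and 5.66, 6.42 and 5.46 in controls, a difference of 0.24 (95% interval -0.48 to 0.96). Together these intervals reach from -0.60 to 0.96, so changes of that size cannot be told from none here.

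Genes that share the pathway but not the names were set beside the 62. Of 8 genes listed for mitochondrial thiolases and electron transfer, 8 were higher (100%, against 53.2% of all genes), with a median of 0.34. The list also holds hadb-1, for the trifunctional protein's beta subunit, and the dehydrogenase genes ard-1 and ivd-1, both at 0.19. Of the 8, 1 was called (12.5%, against 5.20% of all genes). The called gene was acaa-2, a mitochondrial 3-ketoacyl-CoA thiolase, at 9.19, 9.21 and 9.25 with C-SPIONs and 8.45, 8.72 and 8.52 in controls, a difference of 0.65 (95% interval 0.22 to 1.09, adjusted p = 0.302 by limma). The thiolase gene kat-1 was at 0.65 (95% interval -0.05 to 1.36), and let-721 and etfa-1, which pass electrons from the dehydrogenases to the respiratory chain, were at 0.42 and 0.46. The C-SPION arrays stood at 0.17, 0.49 and 0.39 on this list relative to each gene's control mean.

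Peroxisome import and transporter genes went the other way in part. Of 16 measured among 17 listed, 5 were called lower (31.2%, against 7.37% of all genes) and 0 higher, with a median of -0.16. The import receptor gene prx-5 read 5.75, 6.37 and 5.53 with C-SPIONs, against 6.74, 6.68 and 6.85 in controls, a difference of -0.87 (95% interval -1.48 to -0.26, adjusted p = 0.308 by limma). The ABC transporter gene pmp-1 was at -1.05 (95% interval -1.73 to -0.36, adjusted p = 0.301 by limma), prx-11 at -0.82 and prx-2 at -0.72, each with groups apart. In the same list ctl-2, the peroxisomal catalase, was at 0.57 (95% interval -0.17 to 1.30).

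Propionate, acyl-carrier and regulatory genes gave 0 calls by limma at the unadjusted threshold, where 12.6% of all genes were called. Of 9 propionate genes 6 were lower (66.7%, against 46.5% of all genes). They were led by alh-8, a semialdehyde dehydrogenase of the alternative route, at -0.68 (95% interval -1.45 to 0.09). Of 15 genes for acyl-CoA and fatty acid binding proteins 10 were lower (66.7%, against 46.5%), with a median of -0.17. Of 11 regulator genes 9 were lower (81.8%, against 46.5%), with a median of -0.27. The nuclear receptor gene nhr-49 read 7.54, 7.94 and 7.87 with C-SPIONs, against 7.66, 7.96 and 7.84 in controls. Its difference was -0.04 (95% interval -0.53 to 0.45), beside -2.44 for its known target acs-2.

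**Figure D4:**
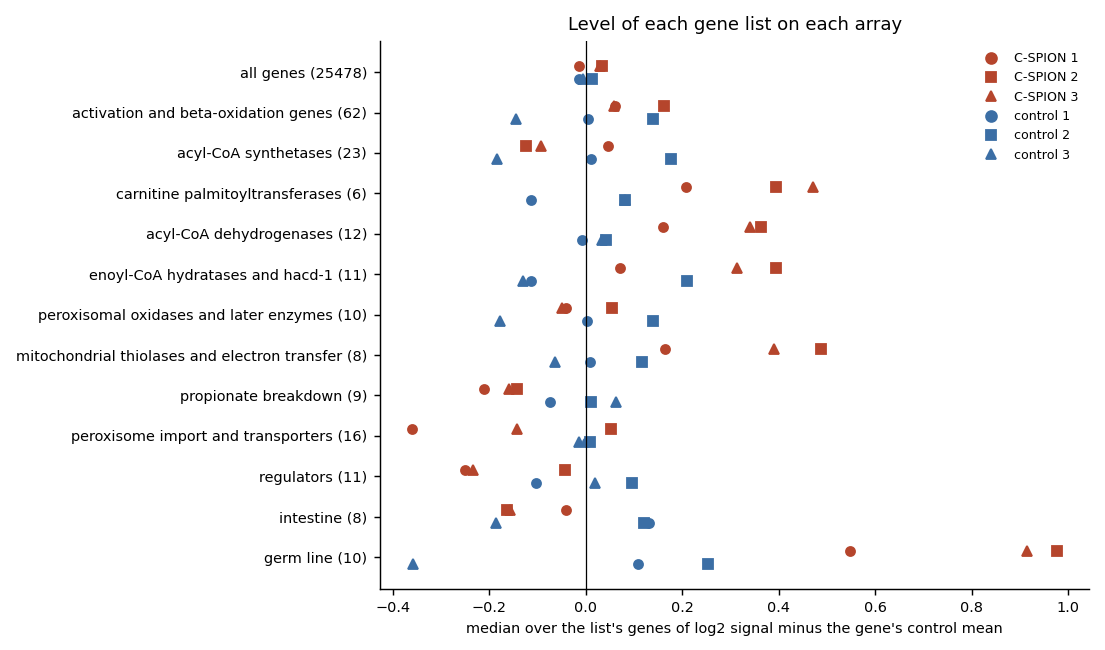
For each gene list and array, the median over the list's genes of the log2 signal minus that gene's control mean, with the number of genes in brackets, C-SPION arrays in red above control arrays in blue. The carnitine transferases, acyl-CoA dehydrogenases and the list of mitochondrial thiolases and electron transfer have all 3 C-SPION arrays above all 3 controls. The synthetases, hydratases and peroxisomal enzymes do not. Of the lists plotted, the germ line markers have the widest gap between groups.

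Tissue markers are given here by array. The 10 germ line markers stood at 0.55, 0.98 and 0.92 in C-SPION 1, 2 and 3 and at 0.11, 0.25 and -0.36 in controls 1, 2 and 3, relative to each gene's control mean. Of the 10, 8 were called higher (80%, against 5.20% of all genes). C-SPION 1 was also the lowest C-SPION array for the hydratases, at 0.07, 0.39 and 0.31, the carnitine transferases, at 0.21, 0.40 and 0.47, and the dehydrogenases, at 0.16, 0.36 and 0.34. Among controls 1, 2 and 3 the lowest was control 3 for the hydratases, at -0.11, 0.21 and -0.13, but control 1 for the carnitine transferases, at -0.11, 0.08 and 0.08, and the dehydrogenases, at -0.0083, 0.04 and 0.03. Of 8 intestinal markers 2 were called lower (25%, against 7.37% of all genes), ifb-2 at -0.82 and act-5 at -1.01. The intestinal regulator gene elt-2 was at 0.32 (95% interval -0.24 to 0.87), and the list's median was -0.10. The list stood at -0.04, -0.16 and -0.16 with C-SPIONs and 0.13, 0.12 and -0.19 in controls. Of 8 epidermal markers 0 were called (against 12.6% of all genes), with a median of 0.01. On C-SPION 1, 2 and 3 the neuron markers stood at -0.64, -0.85 and -0.96 and the muscle markers at -0.55, -0.43 and -0.83. The part of germ line or intestinal RNA in the differences of the fatty acid genes was not tested.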

How the data were processed

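The authors deposited log2 signals, 1 for each transcript cluster on each array. They used RMA in Affymetrix Expression Console according to the submitters' processing notes, with versions, settings and genome build not given in the sources used here. RMA subtracts background, brings arrays to a common distribution and combines the probes of a cluster, so a value is relative to the rest of its array. Detection calls were not used, and precision is limited by having 6 arrays.

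Groups come from the sample titles, since 2 controls carry the same source name. Symbols come from GEO's platform annotation, and all 62 matched the RefSeq gene table of assembly WBcel235 unchanged. The 26192 clusters with a symbol, of 29317, were fitted with limma (version 3.58.1, R version 4.3.3), using lmFit and eBayes, two-sided, with Benjamini-Hochberg adjustment over all of them, after a check on simulated data. Shares over all genes use 1 cluster per gene, the brightest of those with 1 symbol. A gene was called at an unadjusted p under 0.05. Whether samples of a group were separate cultures is not stated in the labels. The p-values therefore measure the spread between these samples only, and that spread may be technical.

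The 62 genes, the lists beside them and the tests were chosen with earlier results of these data known. Named were up to 6 genes per role by smallest p, the brightest and dimmest per role, and 18 genes whatever their values. Other members named here were picked after their values were seen. Alternatives were other scalings, filters, cluster sets and limma options, array weights, a replicate block, other thresholds and leaving out each array.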

Additional observations from a re-analysis of the deposited data

How the results depend on the processing

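The count passing the adjusted threshold was 0 of the 62 under all alternatives, also at an adjusted p under 0.25, where 107 clusters passed. The 9 genes called higher and the 4 called lower at an unadjusted p under 0.05 became 0 and 2 at 0.01, where acs-2 and acs-24 were left. The share of all genes under 0.01 is not given here, so the 2 left are not set against it. With array weights 11 were higher and 8 lower, where 8.87% and 10.5% of all genes were. With limma's trend and robust options 7 were higher and 4 lower, where 5.42% and 7.11% of all genes were. In that fit acs-3, acdh-8 and ech-1.1 lost their calls and acs-4 gained one. Among the 45 genes at or above the median cluster signal 9 were higher and 2 lower, where 7.42% and 11.2% of all genes in that fit were. That filter leaves out acs-24, cpt-5, acdh-8 and ech-1.1. Leaving out 1 array gave 0 to 8 higher and 2 to 6 lower, and a median difference between 0.0067 and 0.15. It stayed positive under all other alternatives, from 0.06 with array weights to 0.19 with arrays centred on their medians.

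Same-numbered samples deviated together for numbers 1 and 2 (correlations 0.22 and 0.20) but not for number 3 (0.0079), so the numbers were not taken as pairs. With a replicate block the counts were those of the main fit, with acdh-4 in place of acdh-8 among the genes called higher. The share of all genes called in that fit is not given here.

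Of the 41 genes named by rule, maoc-1 turned to 0.033 with centred arrays and 0.066 with array weights. Leaving out an array gave ranges that crossed 0 for maoc-1 (-0.18 to 0.10), cpt-1 (-0.022 to 0.39), acs-18 (-0.24 to 0.057), acox-1.1 (-0.38 to 0.14), ech-6 (-0.005 to 0.26), hacd-1 (-0.053 to 1.1) and dhs-28 (-0.097 to 0.23), none of them called. The cause was not tested.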

Other observations

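Some of the 62 genes are neighbours in the genome. The oxidase genes acox-1.1, acox-1.2, acox-1.3 and acox-1.4 follow each other on chromosome I without another protein-coding gene between them in the WBcel235 gene table, and their differences were -0.17, 0.08, -0.29 and 0.13. The gene acdh-12 lies next to maoc-1 on chromosome II, at 0.74 beside -0.06, and ech-9 next to ech-8 on chromosome IV, at 0.16 beside -0.04. With centred arrays maoc-1 was at 0.03 and ech-8 at 0.05. Over all chromosomes the 62 genes are spread with 13 on I, 12 on II, 9 on III, 10 on IV, 13 on V and 5 on X.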
